A study of Mus musculus with 12 samples.

Results

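Lung regulatory T cells (Treg) from mice whose Foxp3 gene is deleted (∆Foxp3) were compared with those from wild-type (WT) mice, gene by gene. The compared libraries were chosen by their labels, 3 of lung ∆Foxp3 and 3 of lung WT, out of 12 in the series. The other 6 libraries are splenic Treg of the same 2 genotypes and entered the fit, so that the 4 groups of 3 shared an estimate of spread. All mice were 21-day-old C57BL/6 males. The genotype is given as Foxp3.ires.GFP for lung WT and as ∆Foxp3.ires.GFP for lung ∆Foxp3, so both groups carry a GFP reporter at Foxp3. Treg of both were sorted by the same gate, as live TCRβ+CD4+GFP+CD25+ cells, with 1000 cells per library. No source used here gives which stretch of Foxp3 the deletion removes. The spleen ∆Foxp3 libraries are labelled with another allele, ∆Foxp3.EGFP.iCre X R26.YFP, although the protocol names the same allele for both tissues. Separate mice for the 3 libraries of a group are not stated, so the p-values rest on a spread between libraries that may be technical. In sorted bulk samples, fewer cells of a kind and less RNA per cell cannot be told apart, and neither can effects inside the cells and effects of living in a ∆Foxp3 mouse.

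Foxp3 is an X-linked forkhead transcription factor that gives Treg their suppressive identity. Males without it have no functional Treg and develop lethal autoimmune inflammation, in which the lung is one of the inflamed organs, while cells that switch on the Foxp3 locus still form and can be followed by a reporter. Resting Treg recirculate through lymphoid organs, whereas effector Treg enter tissues such as the lung, lower the receptors for lymph node homing and take on parts of helper T cell programs.

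Values are CPM, the usual scaling of counts by library size, here adjusted by TMM factors, and are given for libraries 1, 2 and 3 of a group in that order. Differences are log2 fold changes of ∆Foxp3 over WT ± SE from the edgeR quasi-likelihood test. A gene was called changed at a Benjamini-Hochberg adjusted p under 0.05 over all 13295 tested genes. Of these, 2686 (20.2%) were called, 1295 higher (9.74%) and 1391 lower (10.5%), and these shares are the background for the lists below. They are not the background for lists with members that had almost no count in lung WT. Such members could not pass the filter on low counts through that group. The groups did not overlap in 2654 of the called genes, and in 45.3% of all tested genes. For each gene named below as higher or lower, all 3 ∆Foxp3 libraries lay above or below all 3 WT libraries. Where no member of a list was called in a direction, parentheses give how many had an unadjusted p under 0.05 in edgeR and how many were called by DESeq2 and by limma voom. Among the called genes, 738 were higher and 870 lower by more than 2-fold. Removal of a single library left 1692 calls (WT 1), 1554 (WT 2), 1596 (∆Foxp3 2) or 1457 (∆Foxp3 3). Lung library totals were 3958892 to 5815390 counts, so that 3 counts are worth 0.516 to 0.758 CPM. Of the 6 libraries, lung WT 1 held the highest levels of macrophage genes and lung ∆Foxp3 3 the highest share of mitochondrial counts (2.44%, against 1.40% to 1.63%).

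**Figure D1:**
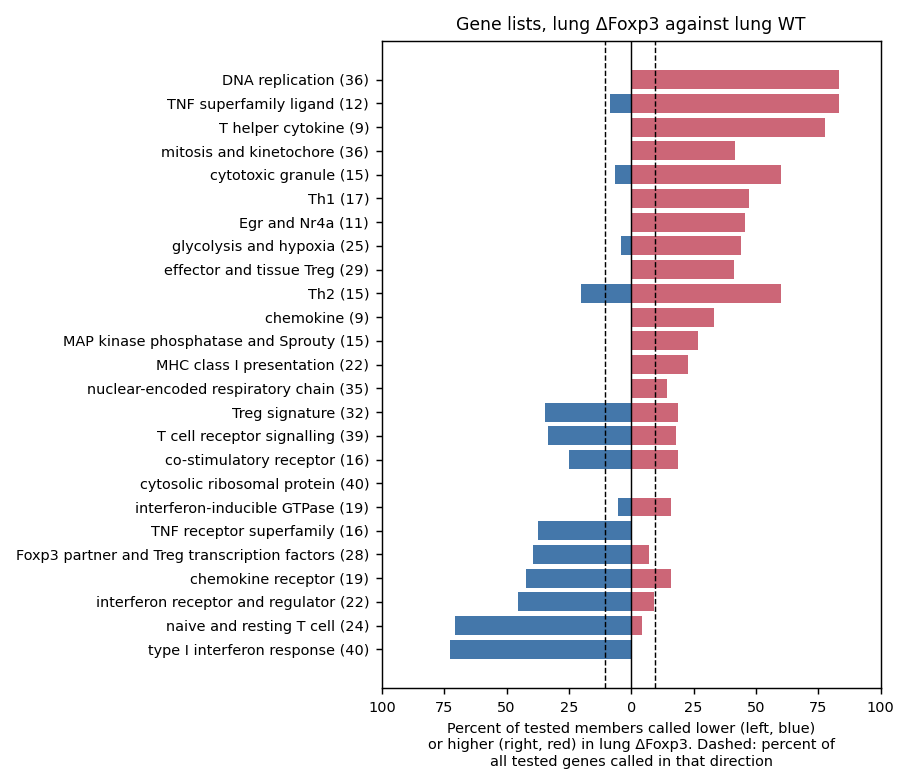
Percent of the tested members of 25 gene lists that were called higher (right, red) or lower (left, blue) in lung ∆Foxp3, with the number tested in parentheses. Dashed lines mark the percent of all tested genes called in the same direction, 9.74% and 10.5%. The lines cross all bars but are no background for lists that hold members with almost no count in WT. Among such lists are helper cytokines, TNF ligands, chemokines and the cytotoxic, Th1 and Th2 genes. DNA replication, TNF ligands and helper cytokines extend farthest to the right, the last over 9 genes of which 4 had no count in WT, and type I interferon response and naive T cell genes farthest to the left.

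Promoters of 3 gene groups are shown first because they hold the letters of regulatory elements in genes that were called lower, not called and called higher in these libraries. Interferon-stimulated response elements (ISRE), searched on both strands as 2 copies of GAAA separated by any 2 bases, are bound by interferon-activated factors. E2F elements, searched as TTTGGCGC or TTTCCCGC on both strands, sit in promoters of S phase genes. Each line is a stretch of 40 bases upstream of the gene's start in the RefSeq annotation (GRCm38.p6), read 5′ to 3′ along the gene's strand, and capitals mark the match, which in Oas1a joins 2 overlapping matches. The first set holds interferon response genes that were lower in lung ∆Foxp3.
Rsad2: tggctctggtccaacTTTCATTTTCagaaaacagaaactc
Oas1a: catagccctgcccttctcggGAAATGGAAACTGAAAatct
Trim30a: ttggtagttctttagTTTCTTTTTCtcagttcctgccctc
Slfn5: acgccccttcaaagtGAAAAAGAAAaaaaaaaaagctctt
Gbp2b: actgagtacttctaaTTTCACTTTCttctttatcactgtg
The second set holds interferon-inducible GTPase genes that hold the same letters and were not called, although Gbp7 was called under 6 of 16 alternatives and Irgm2 and Tgtp2 under 2 each.
Gbp7: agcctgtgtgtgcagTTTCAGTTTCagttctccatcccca
Irgm2: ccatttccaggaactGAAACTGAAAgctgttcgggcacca
Tgtp2: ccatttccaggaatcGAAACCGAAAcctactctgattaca
The third set holds DNA replication genes that were higher.
Mcm6: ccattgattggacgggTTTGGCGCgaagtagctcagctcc
Mcm5: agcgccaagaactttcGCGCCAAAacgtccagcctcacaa
Cdc6: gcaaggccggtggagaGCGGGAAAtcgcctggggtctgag
Pola1: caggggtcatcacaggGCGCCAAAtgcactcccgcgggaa
These windows lie at chr12:26456548-26456587 (minus strand) for Rsad2, chr5:120907526-120907565 (minus strand) for Oas1a, chr7:104465205-104465244 (minus strand) for Trim30a, chr11:82951932-82951971 (plus strand) for Slfn5 and chr3:142594695-142594734 (plus strand) for Gbp2b. Those of the uncalled GTPase genes lie at chr3:142530268-142530307 (plus strand) for Gbp7, chr11:58214898-58214937 (plus strand) for Irgm2 and chr11:49064258-49064297 (minus strand) for Tgtp2. Those of the replication genes lie at chr1:128359729-128359768 (minus strand) for Mcm6, chr8:75109344-75109383 (plus strand) for Mcm5, chr11:98907997-98908036 (plus strand) for Cdc6 and chrX:93632270-93632309 (minus strand) for Pola1.

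In windows from 250 bases before to 50 after the start, 3.99% of the 27025 genes in the promoter table held the ISRE letters. Of the 21 type I interferon response genes that were lower and have a promoter in the table, 14 (66.7%) held them. So did 4 of the 9 members of that list that were not called and 10 of the 11 GTPase genes in the table, of which only Gbp2b was called. Gbp4, Gbp11 and Iigp1, the GTPase genes called higher, have no promoter in the table and were not searched. Over all tested genes in the table the letters were in 7.04% of those called lower, 3.88% of those called higher and 3.37% of those not called. The E2F letters were in 1.8% of all genes, 3.56% of the tested genes and 5.77% of those called higher, in 10 of the 24 replication genes called higher (41.7%) and in 0 of the 30 mitosis genes in the table. A match describes these letters only and is no evidence of binding.

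Foxp3 RNA itself (chromosome X, 7573644 to 7595245, mm10) was at 1411, 1354 and 1321 CPM in WT and 467, 383 and 188 CPM in ∆Foxp3, a log2 fold change of −1.98 ± 0.29 (adjusted p = 0.00041). Foxp3 RNA was reduced but not absent in the libraries labelled ∆Foxp3, and lung ∆Foxp3 3 held the least. A count per gene does not tell which part of the gene the reads come from. Cd3e, a chain of the T cell receptor complex, was at 738, 797 and 811 CPM in WT and 704, 726 and 683 CPM in ∆Foxp3 and was not called (−0.15 ± 0.11, adjusted p = 0.366). Lck, the kinase bound to CD4, was at 1376, 1392 and 1327 CPM in WT and 1239.8, 1301 and 1132 CPM in ∆Foxp3 (−0.16 ± 0.13, adjusted p = 0.415). Of the 12 T cell identity genes, Cd4 was higher (0.37 ± 0.12, adjusted p = 0.034) while Cd5, Cd247, Trbc1 and Trbc2 were lower, by 0.56 to 0.95 on the log2 scale. Il2ra, which encodes the CD25 of the gate, was at 708, 596 and 604 CPM in WT and 572, 431 and 358 CPM in ∆Foxp3, lower in every ∆Foxp3 library but not called (−0.49 ± 0.23, adjusted p = 0.156). Calls that ended when 1 library was left out were those of Cd4 (adjusted p from 0.0559 to 0.102 without WT 1, WT 2, WT 3, ∆Foxp3 2 or ∆Foxp3 3) and Trbc1 (adjusted p from 0.0582 to 0.0728 without WT 3 or ∆Foxp3 3). Under other settings, calls ended for Cd4 (adjusted p = 0.175, with no filter). Counts that moved by more than 1.5 times without 1 library were those of higher T cell identity genes (0 without WT 1, WT 2, WT 3, ∆Foxp3 2 or ∆Foxp3 3).

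The Treg signature divided in lung ∆Foxp3. Of its 32 members, all tested, 11 were lower and 6 higher, with a list median of −0.46 against −0.01 over all genes. Among the lower genes, Bach2, a repressor that keeps Treg in a resting state, was at 88.1, 66.3 and 53.4 CPM in WT and 19.7, 13 and 10.7 CPM in ∆Foxp3 (−2.26 ± 0.31, adjusted p = 0.000239). Izumo1r, the folate receptor 4 of Treg, went from 803, 713 and 712 CPM to 410.3, 177 and 177 CPM (−1.54 ± 0.26, adjusted p = 0.00123). Lrrc32, the GARP protein that holds latent TGF-beta on Treg, fell by 2.01 ± 0.43 (adjusted p = 0.0065). Gata1 fell by 2.30 ± 0.47 (adjusted p = 0.00419). Erythroid transcripts, given below, were also less abundant in lung ∆Foxp3, and their part in the Gata1 difference was not tested. Gpr83, an orphan receptor of Treg, was at 537, 563 and 473 CPM in WT and 171, 109 and 9.56 CPM in ∆Foxp3, with lung ∆Foxp3 3 far below the other 2 (−2.44 ± 0.77, adjusted p = 0.0488). Penk, which encodes the opioid precursor proenkephalin, moved the other way, from 27.6, 21.9 and 33.6 CPM to 679, 517 and 464 CPM (4.31 ± 0.54, adjusted p = 0.000246). Ebi3, a subunit of interleukin 35, rose by 1.83 ± 0.27 (adjusted p = 0.00041) and Rgs1, a brake on chemokine receptor signalling, by 1.64 ± 0.27 (adjusted p = 0.000896). Members that were not called included Tnfrsf18, the GITR receptor (0.17 ± 0.16). Without 1 of the lung libraries, the test was no longer passed by Gpr83 (adjusted p from 0.0888 to 0.135 without WT 1, WT 2, WT 3 or ∆Foxp3 2). Another setting ended the call of Lrrc32 (adjusted p = 0.0598, with no filter) and Gpr83 (adjusted p from 0.0502 to 0.214, with RLE factors, library totals, no filter, only the lung libraries or no mitochondrial, ribosomal or receptor genes). Over 1.5-fold shifts without 1 library were those of lower Treg signature genes (7 without WT 1).

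Of 28 partner and Treg transcription factor genes, 11 were lower and 2 higher. Foxo1, a forkhead factor that sustains naive and Treg gene expression, was at 192, 183 and 176 CPM in WT and 44.5, 34.5 and 28 CPM in ∆Foxp3 (−2.36 ± 0.19, adjusted p = 3.8e-06). Foxp1, the closest relative of Foxp3 in T cells, fell by 1.75 ± 0.22 (adjusted p = 0.0001) and Satb1, a chromatin organiser, by 1.03 ± 0.17 (adjusted p = 0.00086). Lef1, a factor downstream of Wnt that marks resting T cells, fell by 1.36 ± 0.22 (adjusted p = 0.000652), while its relative Tcf7 was not called (−0.51 ± 0.21, adjusted p = 0.101). Gata3, the type 2 master factor that also works in tissue Treg, rose from 535, 511 and 515 CPM to 1069.6, 1046 and 1296 CPM (1.13 ± 0.24, adjusted p = 0.00497). Leaving out 1 library moved by more than 1.5 times the number of higher Foxp3 partner and Treg transcription factor genes (1 without any one) and lower Foxp3 partner and Treg transcription factor genes (7 without WT 2, ∆Foxp3 2 or ∆Foxp3 3).

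Several T helper cytokine genes were higher in lung ∆Foxp3. Of 18 T helper cytokine genes, 9 passed the filter on low counts, and of these 7 were higher, none lower (0 unadjusted, 0 by DESeq2 and 0 by limma voom) and 2 not called. Il4, Il5, Il13 and Il21 had no count in lung WT and could not pass through that group, so this share is not set against that of all genes. Il4 (chromosome 11, 53602982 to 53618669) had 0 counts in all 3 WT libraries and 154, 94.7 and 125 CPM in ∆Foxp3 (adjusted p = 0.000612). Set against 3 counts for the whole WT group, the pooled level of the ∆Foxp3 libraries was at least 585-fold higher. Each such bound below pools the ∆Foxp3 libraries and does not cover the spread between them. Il5 (chromosome 11, 53720794 to 53725106), which drives eosinophils, had 0 counts in all 3 WT libraries and 64.3, 51.9 and 228 CPM in ∆Foxp3 (adjusted p = 0.0228), at least 536-fold higher on the same floor. Il13, which drives mucus and airway responses, had 0 counts in all 3 WT libraries and 18.4, 22.9 and 45.4 CPM in ∆Foxp3 (adjusted p = 0.0133), at least 137-fold higher. No read of these 3 type 2 cytokine genes was counted in any WT library, and each ∆Foxp3 library held all 3. Il10, the cytokine by which Treg restrain inflammation, was at 17.8, 3.87 and 5.42 CPM in WT and 153, 169.9 and 120.5 CPM in ∆Foxp3 (4.02 ± 0.62, adjusted p = 0.000961). Ifng, the type 1 cytokine, was at 2.14, 1.29 and 4.20 CPM in WT and 22.3, 46 and 64.9 CPM in ∆Foxp3 (4.07 ± 0.71, adjusted p = 0.00137). Il21, a cytokine of follicular helper cells, had 0 counts in WT, against 3.44, 3.35 and 2.89 CPM in ∆Foxp3 (adjusted p = 0.0183), at least 15.4-fold higher. Tnf was at 7.07, 10.3 and 9.27 CPM in WT and 22, 21.3 and 24.9 CPM in ∆Foxp3 (1.36 ± 0.41, adjusted p = 0.03). Csf2 was at 0, 0.258 and 0 CPM in WT and 3.44, 1.18 and 3.11 CPM in ∆Foxp3 and was not called (adjusted p = 0.0729), and neither was Lta (31.9, 26 and 35.5 CPM and 54.9, 29.4 and 14.9 CPM). The type 17 cytokines Il17a, Il17f and Il22 stayed below the filter, at no more than 1.15 CPM in any lung library, and so did Il2, at no more than 0.986 CPM. Il9 and Il22 had 0 counts in all 6. The left-out library decided the call of Il5 (adjusted p from 0.0536 to 0.0692 without WT 1, WT 3, ∆Foxp3 1 or ∆Foxp3 2), Il21 (adjusted p from 0.0505 to 0.0525 without WT 1, WT 2 or WT 3) and Tnf (adjusted p from 0.0593 to 0.101 without WT 1, WT 2, WT 3, ∆Foxp3 2 or ∆Foxp3 3). A change of setting also ended the call of Il5 (adjusted p = 0.183, with no filter). The number without 1 library differed by over 1.5 times for higher T helper cytokine genes (4 without WT 1 or WT 3).

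**Figure D2:**
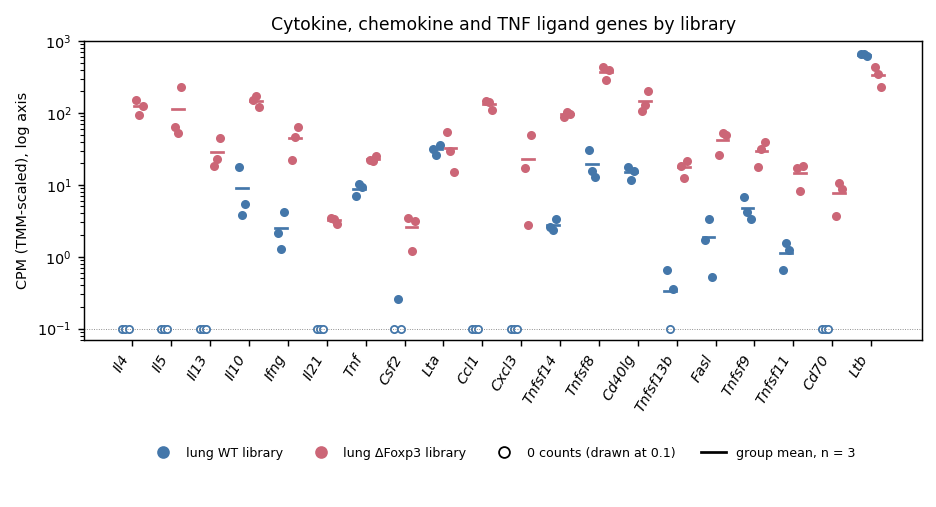
CPM on a log axis for cytokine, chemokine and TNF ligand genes in each lung WT (blue) and lung ∆Foxp3 (red) library, with bars at group means (n = 3) and open circles for 0 counts, drawn at 0.1. The ∆Foxp3 points lie above the WT points for nearly all genes, except Lta, where the groups overlap, and Ltb, where they lie below.

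Type 2 cytokines are also made by group 2 innate lymphoid cells (ILC2), mast cells and basophils. Of 8 tested markers of ILC2, 6 were higher in lung ∆Foxp3, and their summed level was 305 to 383 CPM across the WT libraries against 683 to 773 CPM across those of ∆Foxp3. The highest fold among them was that of Arg1, an arginine-degrading enzyme, at 0, 0.258 and 0.525 CPM in WT and 78.8, 33.1 and 39.3 CPM in ∆Foxp3 (7.39 ± 1.11, adjusted p = 0.000748). Nmur1, the neuromedin U receptor, was at 2.14, 2.84 and 2.97 CPM in WT and 32.6, 39.1 and 45.8 CPM in ∆Foxp3 (3.87 ± 0.75, adjusted p = 0.00304) and Areg, the epithelial growth factor amphiregulin, at 57.4, 13.9 and 7.87 CPM in WT and 254, 278 and 383 CPM in ∆Foxp3 (3.53 ± 0.90, adjusted p = 0.0205). Areg and Klrg1 in that list are also expressed by tissue Treg, and most of the rise in the summed level was that of Areg. Arg1, with 4 counts in WT, could not pass the filter through that group. The ILC2 share is thus not set against that of all genes. Of 14 mast cell, basophil and eosinophil markers, 3 were tested, Ccr3 was lower (−4.09 ± 0.81, adjusted p = 0.00419) and Hdc higher (2.78 ± 0.83, adjusted p = 0.033), and their summed level was 60.9 to 89 CPM across the WT libraries against 16.4 to 45.2 CPM across those of ∆Foxp3. The part of such cells in the cytokine differences was not tested. 1 library also decided the call of Areg (adjusted p from 0.0548 to 0.0767 without WT 2, WT 3, ∆Foxp3 2 or ∆Foxp3 3) and Hdc (adjusted p from 0.0715 to 0.112 without WT 2, WT 3, ∆Foxp3 1 or ∆Foxp3 3). Other processing ended the call of Areg (adjusted p = 0.102, with no filter). Counts that moved by more than 1.5 times without 1 library were those of higher group 2 innate lymphoid cell genes (3 without WT 2) and higher mast cell, basophil and eosinophil genes (0 without WT 2, WT 3, ∆Foxp3 1 or ∆Foxp3 3).

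Genes of helper T cell programs, cytokines among them, were higher or lower by program. Of 15 tested Th2 genes, which include Il4, Il5, Il13 and Il10, 9 were higher and 3 lower. Il4, Il5 and Il13 in the Th2 list and Il12rb2 in the Th1 list could not pass the filter through the WT group. The shares of both lists are thus not set against that of all genes. Il1rl1, the interleukin 33 receptor that marks tissue Treg and Th2 cells, was at 94.7, 95.2 and 70.9 CPM in WT and 423, 262 and 268 CPM in ∆Foxp3 (1.87 ± 0.31, adjusted p = 0.0011). Pparg, a nuclear receptor of fat and tissue Treg, rose from 11.6, 6.71 and 3.15 CPM to 70.3, 32.9 and 53.6 CPM (2.88 ± 0.44, adjusted p = 0.000467). Ccr4, a homing receptor shared by Th2 cells and Treg, moved against the list, from 208, 288 and 326 CPM to 115, 66.5 and 109.6 CPM (−1.50 ± 0.25, adjusted p = 0.000812). Of 17 Th1 genes, Ifng and Tnf among them, 8 were higher and none lower (0 unadjusted, 0 by DESeq2 and 0 by limma voom). Il12rb2, the inducible chain of the receptor for interleukin 12, had a single count in the WT group and 5.28, 41.6 and 20.01 CPM in ∆Foxp3, a pooled ratio of 332 (95% counting interval 59.1 to 13147). Il18rap, a chain of the interleukin 18 receptor, was at 9.43, 18.6 and 23.3 CPM in WT and 90.7, 186 and 279 CPM in ∆Foxp3 (3.43 ± 0.56, adjusted p = 0.00138). Tbx21, the type 1 master factor T-bet, was at 0.429, 10.6 and 9.62 CPM in WT and 46.2, 60.2 and 42.7 CPM in ∆Foxp3 and passed narrowly (2.85 ± 0.93, adjusted p = 0.048). In the Th17 list 3 genes were higher and 3 lower of 11. Follicular helper genes divided, 4 higher and 5 lower of 14, with Pdcd1, the receptor PD-1, rising from 60.2, 50.3 and 24.3 CPM to 499, 424 and 466 CPM (3.37 ± 0.30, adjusted p = 9.9e-06) and Il6ra, the interleukin 6 receptor, falling from 249, 197 and 206 CPM to 33.1, 14.6 and 10.00 CPM (−3.50 ± 0.33, adjusted p = 1.8e-05). Depending on 1 left-out library, the threshold was missed by Il5 (adjusted p from 0.0536 to 0.0692 without WT 1, WT 3, ∆Foxp3 1 or ∆Foxp3 2), Tnf (adjusted p from 0.0593 to 0.101 without WT 1, WT 2, WT 3, ∆Foxp3 2 or ∆Foxp3 3) and Tbx21 (adjusted p from 0.0834 to 0.127 without any one). The setting also decided the call of Tbx21 (adjusted p from 0.0581 to 0.278, with no filter or DESeq2). Over 1.5-fold shifts without 1 library were those of lower Th2 genes (1 without WT 1 or WT 2), lower Th17 genes (1 without WT 2, WT 3, ∆Foxp3 2 or ∆Foxp3 3) and lower follicular helper genes (2 without ∆Foxp3 2 or ∆Foxp3 3, 3 without WT 2).

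Most TNF superfamily ligands were higher and some of the receptors lower. Of 12 tested ligands 10 were higher and 1 lower, with a median of 3.46, whereas of 16 tested receptors none was higher (1 unadjusted, 1 by DESeq2 and 2 by limma voom) and 6 were lower, with a median of −0.37. Cd70, with 0 counts in WT, and Tnfsf13b, with 5, could not pass the filter through that group. The ligand share is thus not set against that of all genes. Tnfsf14, the costimulatory ligand LIGHT (chromosome 17, 57189492 to 57194177), was at 2.57, 2.32 and 3.32 CPM in WT and 87.9, 104 and 95.8 CPM in ∆Foxp3 (5.10 ± 0.33, adjusted p = 6.6e-07), among the smallest adjusted p of all genes. Tnfsf8, the CD30 ligand, was at 30.4, 15.7 and 12.9 CPM in WT and 439.7, 289.6 and 400.1 CPM in ∆Foxp3 (4.26 ± 0.34, adjusted p = 4.2e-06). Cd40lg, by which helper cells license B cells and dendritic cells, was at 18, 11.6 and 15.7 CPM in WT and 106, 129.6 and 201 CPM in ∆Foxp3 (3.26 ± 0.43, adjusted p = 0.000234). In none of these 3 did a ∆Foxp3 library come near the WT range. Tnfsf13b, the B cell survival factor BAFF, had 5 counts over the WT libraries and 18.6, 12.6 and 21.8 CPM in ∆Foxp3 (5.58 ± 0.81, adjusted p = 0.000326), and Cd70 had 0 counts and 3.67, 10.5 and 8.89 CPM (adjusted p = 0.0197), at least 37.2-fold higher. Fasl, the death ligand, was at 1.71, 3.35 and 0.525 CPM in WT and 26.4, 52.5 and 49.1 CPM in ∆Foxp3 (4.58 ± 0.78, adjusted p = 0.00133), Tnfsf9, the 4-1BB ligand, rose by 2.63 ± 0.46 (adjusted p = 0.00135). Ltb, a lymphoid tissue organiser, was the ligand that fell, from 653, 657 and 629.7 CPM to 438, 346 and 229 CPM (−0.94 ± 0.20, adjusted p = 0.00399). On the receptor side Cd27, the CD70 receptor of resting T cells, went from 574, 595 and 491 CPM to 229, 209 and 125 CPM (−1.56 ± 0.21, adjusted p = 0.000168), Tnfrsf13b fell by 1.09 ± 0.18 (adjusted p = 0.000812) and Tnfrsf1a, the TNF receptor 1, by 1.75 ± 0.36 (adjusted p = 0.00343). The Treg receptor Tnfrsf4, OX40, was not called (0.55 ± 0.28). Among these, leaving out 1 library ended the calls of Cd70 (adjusted p from 0.0522 to 0.0579 without WT 1, WT 2, WT 3, ∆Foxp3 2 or ∆Foxp3 3).

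Of 9 tested chemokine genes 3 were higher and none lower (0 unadjusted, 0 by DESeq2 and 0 by limma voom). Ccl1 and Cxcl3 had no count in WT and could not pass the filter through that group. The chemokine share is thus not set against that of all genes. Ccl1, the ligand of Ccr8, had 0 counts in all 3 WT libraries and 149, 143 and 111 CPM in ∆Foxp3 (adjusted p = 0.0257), at least 639-fold higher. Cxcl3 had 0 counts in all 3 WT libraries and 17.2, 2.76 and 49.4 CPM in ∆Foxp3 (adjusted p = 0.00791). Its pooled level was at least 106-fold higher, with ∆Foxp3 2 far the lowest. The receptor gene Ccr8, a marker of tissue Treg and Th2 cells, was at 73.5, 35.8 and 39.4 CPM in WT and 315, 220.4 and 302 CPM in ∆Foxp3 (2.49 ± 0.28, adjusted p = 4.7e-05). Of 19 chemokine receptor genes, 3 were higher and 8 lower. Cxcr6, which retains T cells in lung and liver, went from 57.4, 36.9 and 33.6 CPM to 923, 842 and 835 CPM (4.35 ± 0.60, adjusted p = 0.000643). Ccr10, a skin homing receptor, fell to 5 counts in all from 23.1, 27.1 and 26.6 CPM (−6.09 ± 1.04, adjusted p = 0.00125) and Ccr6, a receptor of mucosal T cells, fell from 56.6, 60.1 and 46.2 CPM to 5.05, 1.18 and 0.222 CPM (−4.67 ± 0.79, adjusted p = 0.0014). Not called in every set of 5 lung libraries were Ccl1 (adjusted p from 0.0545 to 0.0929 without any one). Under other settings, calls ended for Ccl1 (adjusted p = 0.197, with no filter) and Cxcl3 (adjusted p from 0.0538 to 0.0635, with limma voom or only the lung libraries). Leaving out 1 library moved by more than 1.5 times the number of higher chemokine genes (1 without WT 1, WT 2, WT 3, ∆Foxp3 2 or ∆Foxp3 3).

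Genes of resting, recirculating T cells were lower. Of 24 members of that list 17 were lower and 1 higher, with a median of −1.60. Ccr7, the chemokine receptor for lymph node entry, was at 1772, 1075 and 944 CPM in WT and 490.5, 356 and 111 CPM in ∆Foxp3 (−1.99 ± 0.46, adjusted p = 0.0108). S1pr1, by which T cells leave lymphoid organs, went from 763, 854 and 853 CPM to 222, 319 and 176 CPM (−1.78 ± 0.21, adjusted p = 5.6e-05), and Ly6c1 from 165, 105 and 100.8 CPM to 12.6, 11.4 and 4.0 CPM (−3.72 ± 0.43, adjusted p = 9.4e-05). Klf2, an activator of S1pr1, fell by 1.27 ± 0.29 (adjusted p = 0.00677), and among 12 Kruppel-like factors Klf3 fell most clearly, from 235, 283 and 250.02 CPM to 35.8, 43.8 and 16.9 CPM (−2.99 ± 0.26, adjusted p = 5.3e-06). Id3, an inhibitor of E proteins kept high in resting Treg, fell by 1.72 ± 0.17 (adjusted p = 2e-05) while its relative Id2, high in effector cells, rose from 71.6, 48.2 and 59.1 CPM to 349, 482 and 469 CPM (2.86 ± 0.35, adjusted p = 0.000145). Themis, a receptor signalling adaptor of thymocytes, was the 1 member of the resting list that rose (1.36 ± 0.16, adjusted p = 6.8e-05). Of 17 integrin genes 2 were higher and 2 lower (23.5% called, against 20.2% of all genes), with a median of −0.07. Itga6 fell by 2.27 ± 0.23 (adjusted p = 2.1e-05) and Itgb7, the beta chain of the gut homing integrin, from 436, 1122 and 1731 CPM to 352, 306 and 264 CPM (−1.84 ± 0.37, adjusted p = 0.00495), while Itgal, the alpha chain of LFA-1, rose by 0.57 ± 0.15 (adjusted p = 0.0176) and Itgb1 by 1.45 ± 0.39 (adjusted p = 0.0206). Cd44, the hyaluronan receptor of antigen-experienced cells, was at 229.8, 214 and 190.2 CPM in WT and 397, 449.8 and 509 CPM in ∆Foxp3 (1.10 ± 0.16, adjusted p = 0.000402). With 1 lung library removed, calls were lost for Itgal (adjusted p = 0.0577 without WT 1) and Itgb1 (adjusted p from 0.0505 to 0.065 without WT 1 or ∆Foxp3 3). Another setting ended the call of Ccr7 (adjusted p from 0.0679 to 0.0926, with no filter or only the lung libraries), Itgb7 (adjusted p from 0.0534 to 0.0551, with no filter or only the lung libraries) and Itgb1 (adjusted p = 0.155, with no filter). The number without 1 library differed by over 1.5 times for higher integrin subunit genes (0 without WT 1, 1 without ∆Foxp3 3) and lower integrin subunit genes (4 without ∆Foxp3 1).

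**Figure D3:**
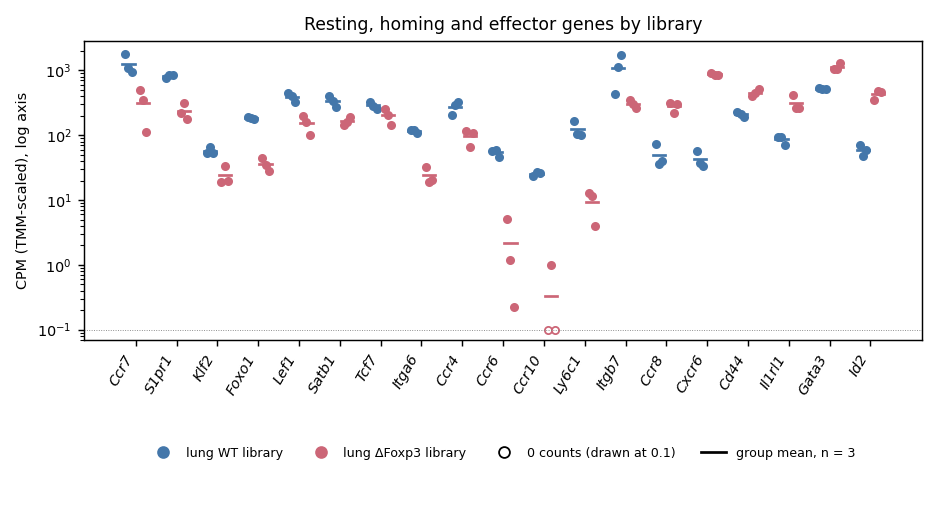
CPM on a log axis for resting, homing and effector genes in each lung WT (blue) and lung ∆Foxp3 (red) library, with bars at group means (n = 3) and open circles for 0 counts, drawn at 0.1. Genes from Ccr7 to Itgb7 lie lower in ∆Foxp3, apart from Tcf7, where the groups overlap, and those from Ccr8 to Id2 lie higher.

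Part of the effector and tissue Treg genes were higher. Of 29 members 12 were higher and none lower (1 unadjusted, 0 by DESeq2 and 2 by limma voom), with a median of 1.00. Besides Ccr8, Cxcr6, Il1rl1, Pparg and Gata3, this list held Maf, a factor of interleukin 10 production (1.00 ± 0.18, adjusted p = 0.00175). Not called were Klrg1 (−0.56 ± 0.37, adjusted p = 0.323) and Itgae, the integrin of tissue-resident cells (−1.67 ± 0.70, adjusted p = 0.118). In the suppressive list 6 of 23 were higher and 5 lower. Fgl2, a secreted suppressor, was at 96, 116 and 110.2 CPM in WT and 897, 537 and 344 CPM in ∆Foxp3 (2.46 ± 0.38, adjusted p = 0.000871), Furin, a protease that activates TGF-beta, rose by 1.58 ± 0.29 (adjusted p = 0.00184) and Smad7, an inhibitor of TGF-beta signalling, fell by 1.63 ± 0.26 (adjusted p = 0.000732). Ctla4, the receptor by which Treg strip costimulatory ligands, was at 873, 655 and 663 CPM in WT and 606, 425 and 405 CPM in ∆Foxp3 (−0.61 ± 0.17, adjusted p = 0.0215). Of 19 co-inhibitory receptors 6 were higher and 4 lower. Lag3 was at 41.6, 43.8 and 54.9 CPM in WT and 262, 182 and 178 CPM in ∆Foxp3 (2.15 ± 0.32, adjusted p = 0.000434) and Lilrb4a at 2.36, 0 and 0 CPM in WT and 36.7, 49.9 and 50.9 CPM in ∆Foxp3 (5.84 ± 0.94, adjusted p = 0.00116), with reads that its near copy Lilr4b may share. Cd96 fell by 1.38 ± 0.17 (adjusted p = 8.5e-05), Vsir, the receptor VISTA, by 0.95 ± 0.18 (adjusted p = 0.00232) and Cd5 by 0.81 ± 0.13 (adjusted p = 0.000698). Calls that rested on 1 library were those of Ctla4 (adjusted p from 0.122 to 0.144 without WT 1, ∆Foxp3 2 or ∆Foxp3 3). Counts that moved by more than 1.5 times without 1 library were those of lower suppressive cytokine and TGF-beta handling genes (2 without WT 1, ∆Foxp3 2 or ∆Foxp3 3, 3 without WT 2).

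Cytotoxic granule genes were higher in 9 of 15 tested members and lower in 1. Gzma and Gzmk had too few counts in WT to pass the filter through that group, so this share is not set against that of all genes. Gzma, granzyme A, had 5 counts over the WT libraries and 27.3, 174 and 37.8 CPM in ∆Foxp3 (7.75 ± 1.00, adjusted p = 0.000298). Gzmk, granzyme K, had 2 counts and 8.96, 15 and 13.1 CPM, a pooled ratio of 89.1 (95% counting interval 24.3 to 742). Nkg7, a granule membrane protein, was at 18, 43.3 and 34.1 CPM in WT and 203, 626 and 456 CPM in ∆Foxp3 (3.76 ± 0.39, adjusted p = 4.7e-05), and Cst7, an inhibitor of granule proteases, rose by 1.76 ± 0.25 (adjusted p = 0.000302). Gzmb, the granzyme that WT lung Treg already expressed, was at 135, 155 and 109 CPM in WT and 256, 577 and 439 CPM in ∆Foxp3 and was not called (1.67 ± 0.69, adjusted p = 0.118). Lamp1, a lysosome membrane protein, was the member that fell (−1.59 ± 0.34, adjusted p = 0.00441). Markers of CD8 T cells, NK cells and gamma delta T cells summed to 32.2 to 40.1 CPM across the WT libraries against 32.8 to 85.4 CPM across those of ∆Foxp3, with 1 of 6 tested markers higher, Klrk1 (5.48 ± 1.08, adjusted p = 0.00272), and none lower (1 unadjusted, 0 by DESeq2 and 0 by limma voom). Cd8b1 was at 21, 18.1 and 20.8 CPM and 10.1, 15 and 29.3 CPM. Their part in the granule genes was not tested. A change of setting also ended the call of Gzma (adjusted p = 0.0921, with limma voom). Over 1.5-fold shifts without 1 library were those of higher CD8, natural killer and gamma delta T cell genes (2 without WT 3 or ∆Foxp3 1).

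Genes of the type I interferon response were lower in lung ∆Foxp3. Of 40 tested members 29 were lower and none higher (0 unadjusted, 0 by DESeq2 and 0 by limma voom), with a median of −1.37, against 10.5% lower over all genes. Rsad2, the antiviral protein viperin (chromosome 12, 26442746 to 26456452), was at 64.5, 60.3 and 47.1 CPM in WT and 2.07, 0.197 and 0.667 CPM in ∆Foxp3 (−5.89 ± 0.62, adjusted p = 3.4e-05). Oasl1 was at 36, 12.9 and 4.90 CPM in WT and 0.23, 0.789 and 0 CPM in ∆Foxp3 (−5.57 ± 0.95, adjusted p = 0.0011). Ifit1, which binds viral RNA, was at 134, 70.9 and 55.3 CPM in WT and 15.2, 9.07 and 3.11 CPM in ∆Foxp3 (−3.25 ± 0.61, adjusted p = 0.00311), and Usp18, the feedback inhibitor of the interferon receptor, at 137, 71.7 and 56.9 CPM in WT and 13.3, 8.88 and 2.89 CPM in ∆Foxp3 (−3.40 ± 0.45, adjusted p = 0.000256). In each of these 4 genes the highest ∆Foxp3 library lay below the lowest WT library, and lung WT 1 was the highest of all. Abundant members fell as well, Ifi27l2a from 1749, 1404 and 1454 CPM to 337, 353 and 335 CPM (−2.17 ± 0.23, adjusted p = 3.4e-05) and Trim30a from 243, 217 and 196 CPM to 93.5, 80.9 and 84.5 CPM (−1.34 ± 0.14, adjusted p = 2.2e-05). Oas1a (−4.0), Slfn5 (−2.12), Rtp4 (−2.23), Dhx58 (−1.92), Eif2ak2 (−1.53) and Phf11b (−0.98) fell by the log2 fold changes in parentheses. The 11 members not called included Ifit2, at 60.4, 36.9 and 27.1 CPM and 44.5, 31.8 and 32.5 CPM, Oas3 (−1.24 ± 0.45) and Mx1 (−1.57 ± 0.74). Leaving out 1 library moved by more than 1.5 times the number of lower type I interferon response genes (19 without WT 1 or ∆Foxp3 3).

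Of 22 genes for interferon receptors and regulators 10 were lower and 2 higher. Irf7 and Irf9, factors that drive and carry the type I response, fell by 1.89 ± 0.27 (adjusted p = 0.000275) and 1.14 ± 0.18 (adjusted p = 0.000498). Ifnar1, a chain of the type I receptor, was at 505, 500.1 and 415 CPM in WT and 225, 214 and 235 CPM in ∆Foxp3 (−1.07 ± 0.13, adjusted p = 9.4e-05). Irf8 rose from 8.57, 20.6 and 15.2 CPM to 78.5, 64.7 and 44.7 CPM (2.09 ± 0.35, adjusted p = 0.000876) and Jak2, a kinase of the interferon gamma receptor, by 0.82 ± 0.21 (adjusted p = 0.0142). Interferon-inducible GTPases, which respond strongly to interferon gamma and defend against microbes inside vacuoles, had 3 of 19 members higher, 1 lower and 15 not called. The share called among them was 21.1%, against 20.2% of all genes. Iigp1 was at 89.4, 81 and 65.6 CPM in WT and 264, 217 and 96 CPM in ∆Foxp3 (1.29 ± 0.29, adjusted p = 0.00693) and Gbp4 rose by 0.63 ± 0.18 (adjusted p = 0.0227). Gbp2b was the member that fell, from 44.6, 46.2 and 45.5 CPM to 1.84, 0.395 and 0 CPM (−5.93 ± 0.78, adjusted p = 0.000192). The most abundant members, Ifi47 (0.04 ± 0.22), Gbp7 (−0.40 ± 0.14) and Igtp (0.31 ± 0.23), were not called, and neither were Irgm2 (−0.47 ± 0.20) and Tgtp2 (0.54 ± 0.22), whose promoters are shown above. Whether the 2 groups of genes differ was not tested. Of 22 MHC class I genes 5 were higher and none lower (0 unadjusted, 0 by DESeq2 and 0 by limma voom), with Erap1, a peptide trimming enzyme, at 0.67 ± 0.16 (adjusted p = 0.00783). The share called in the class I list was 22.7%, against 20.2% of all genes. Removal of 1 lung library ended the calls of Jak2 (adjusted p = 0.0514 without WT 3) and Gbp4 (adjusted p from 0.0631 to 0.0677 without WT 2, WT 3 or ∆Foxp3 1). The number without 1 library differed by over 1.5 times for higher interferon receptor and regulator genes (1 without WT 3), lower interferon receptor and regulator genes (5 without WT 1 or ∆Foxp3 3, 6 without WT 2), higher interferon-inducible GTPase genes (1 without WT 2, WT 3 or ∆Foxp3 1, 6 without ∆Foxp3 3) and higher MHC class I presentation genes (2 without WT 2, WT 3 or ∆Foxp3 2).

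**Figure D4:**
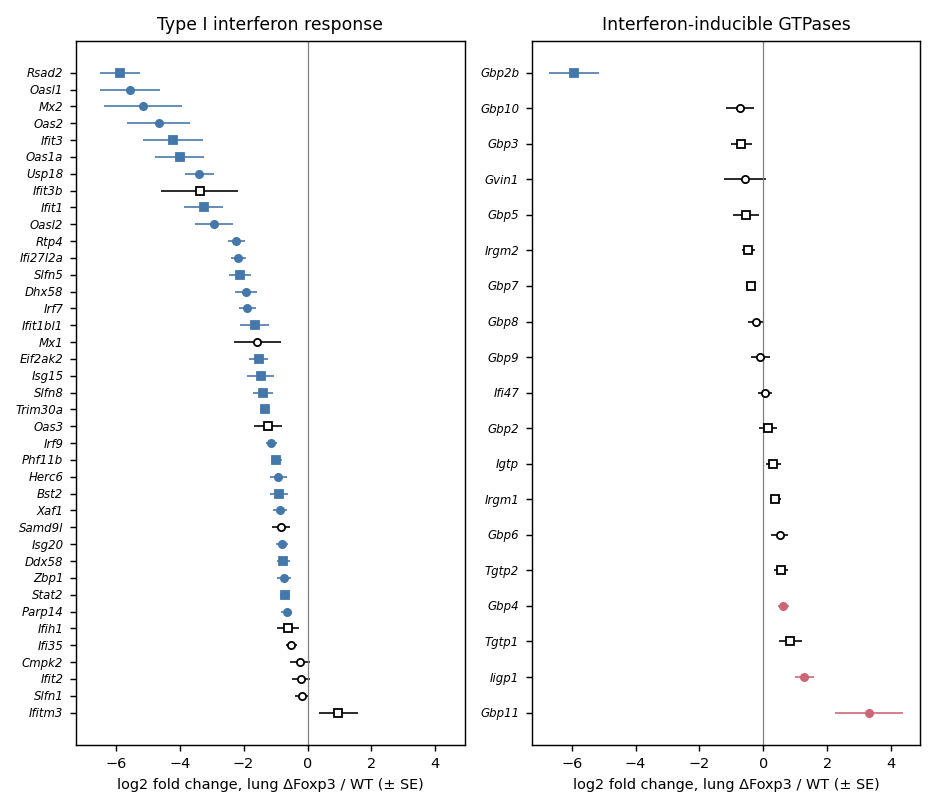
Log2 fold change of lung ∆Foxp3 over WT (± SE) for members of the type I interferon response (left) and the interferon-inducible GTPases (right). Blue is called lower, red called higher and open symbols not called, and squares mark genes whose promoter holds the ISRE letters. Circles mark both genes whose promoter lacks the letters and genes without a promoter in the table. Usp18, Rtp4, Gbp4, Gbp11 and Iigp1 are among the latter. Nearly all genes on the left lie below 0, while those on the right, apart from Gbp2b, are spread around it.

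Some genes induced by T cell receptor signals were higher in lung ∆Foxp3. Of 11 Egr and Nr4a genes 5 were higher and none lower (0 unadjusted, 0 by DESeq2 and 0 by limma voom). Egr2, a factor of anergy and of restraint in stimulated T cells (chromosome 10, 67535475 to 67542188), was at 1.71, 0 and 0.875 CPM in WT and 101.3, 64.1 and 43.8 CPM in ∆Foxp3 (6.23 ± 0.54, adjusted p = 7.6e-06). Egr1 was at 20.4, 18.6 and 15.9 CPM in WT and 39, 53.5 and 61.4 CPM in ∆Foxp3 (1.49 ± 0.24, adjusted p = 0.000634) and Egr3 rose by 3.68 ± 0.78 (adjusted p = 0.00428). Nr4a1, which reports receptor signal strength and also responds to handling, was at 888, 383 and 199 CPM and 659, 846 and 1153 CPM and was not called (adjusted p = 0.494). Dusp6, the phosphatase that turns off ERK, was at 10.9, 7.22 and 11 CPM in WT and 109.8, 79.7 and 88 CPM in ∆Foxp3 (3.23 ± 0.25, adjusted p = 2.4e-06), and 4 of 15 MAP kinase phosphatase and Sprouty genes were higher and none lower (2 unadjusted, 2 by DESeq2 and 1 by limma voom). In the signalling machinery itself, 7 of 39 were higher and 13 lower. Zap70, the kinase of the receptor complex, rose by 1.19 ± 0.16 (adjusted p = 0.000216), and Dgka, which ends diacylglycerol signals, fell from 1940.3, 1776 and 1610.3 CPM to 924, 809 and 566 CPM (−1.21 ± 0.18, adjusted p = 0.000339). Of 17 heat shock and chaperone genes, some of which rise with stress during tissue dissociation, only Hspa9 was called (1.23 ± 0.24, adjusted p = 0.00258). The share called in that list was 5.88%, against 20.2% of all genes, and its median was 0.34. The part of handling stress was not tested. Nfkb1 rose by 1.62 ± 0.27 (adjusted p = 0.00115), and of 20 NF-kappaB genes 4 were higher and 2 lower. Counts that moved by more than 1.5 times without 1 library were those of higher MAP kinase phosphatase and Sprouty genes (2 without WT 2, WT 3, ∆Foxp3 1 or ∆Foxp3 2), lower MAP kinase phosphatase and Sprouty genes (1 without WT 3), higher T cell receptor signalling genes (2 without WT 2, 3 without WT 3, ∆Foxp3 2 or ∆Foxp3 3, 4 without WT 1), lower T cell receptor signalling genes (6 without WT 3 or ∆Foxp3 3) and higher NF-kappaB subunit and feedback inhibitor genes (1 without WT 2).

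Cytokine receptor signalling showed Cish, the STAT5-induced feedback inhibitor, among the smallest adjusted p of all genes, at 179, 139 and 125 CPM in WT and 699, 573 and 563 CPM in ∆Foxp3 (2.05 ± 0.16, adjusted p = 2.3e-06). Of 18 genes for common gamma chain receptors and STAT5 signalling, 4 were higher and 4 lower. Pim1, another STAT5 target, moved against Cish, from 313, 299 and 279 CPM to 108, 110.3 and 107 CPM (−1.45 ± 0.16, adjusted p = 4.7e-05), while Pim2 rose by 1.32 ± 0.24 (adjusted p = 0.0017). Stat5b fell by 1.35 ± 0.19 (adjusted p = 0.000294). The receptor chain Il2rg was not called (−0.41 ± 0.17). Among survival genes of the BCL2 and death receptor families, 5 of 22 were higher and 5 lower, led by Bcl2a1d, at 4.29, 3.09 and 0.7 CPM in WT and 38.6, 40.2 and 47.6 CPM in ∆Foxp3 (4.0 ± 0.46, adjusted p = 5.2e-05), and Bcl2a1b, at 2.52 ± 0.34 (adjusted p = 0.000191). The 2 are near copies whose reads can be shared. Over 1.5-fold shifts without 1 library were those of lower common gamma chain receptor and STAT5 genes (2 without WT 1 or ∆Foxp3 2), higher BCL2 family and Fas genes (3 without WT 1, WT 2, WT 3, ∆Foxp3 2 or ∆Foxp3 3) and lower BCL2 family and Fas genes (0 without ∆Foxp3 2, 1 without WT 1, WT 2 or ∆Foxp3 3, 2 without WT 3).

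Most replication genes and a part of the mitosis genes were higher. Of 36 replication genes 30 were higher and none lower (0 unadjusted, 0 by DESeq2 and 0 by limma voom), with a median of 1.34, and of 36 mitosis and kinetochore genes 15 were higher, none lower (0 unadjusted, 0 by DESeq2 and 0 by limma voom) and 21 not called, with a median of 1.03. Gins2, a part of the replicative helicase, was at 11.8, 8.77 and 17.8 CPM in WT and 41.8, 51.1 and 69.6 CPM in ∆Foxp3 (2.07 ± 0.35, adjusted p = 0.000919). Lig1, the DNA ligase of Okazaki fragments, was at 67.3, 96.7 and 111 CPM in WT and 229, 240.5 and 285 CPM in ∆Foxp3 (1.46 ± 0.24, adjusted p = 0.000895). Mcm6, a helicase subunit, was at 351, 413 and 448 CPM in WT and 701, 823 and 892 CPM in ∆Foxp3 (0.99 ± 0.20, adjusted p = 0.00334). In the mitotic list Mad2l1, of the spindle checkpoint, was at 54.2, 53.6 and 75.4 CPM in WT and 132, 182 and 169 CPM in ∆Foxp3 (1.39 ± 0.23, adjusted p = 0.000955), and Mki67, the common proliferation marker, at 138, 117 and 165 CPM in WT and 193, 284 and 252 CPM in ∆Foxp3, which was not called (0.80 ± 0.32, adjusted p = 0.0941). The replication count was between 20 and 30 in the fits without 1 lung library. Cdk6, a G1 kinase, rose from 201, 209 and 164 CPM to 692, 572 and 677 CPM (1.76 ± 0.15, adjusted p = 6.1e-06). Of the CDK inhibitors, Cdkn1b, which keeps cells quiescent, fell by 1.28 ± 0.14 (adjusted p = 3.9e-05) and Cdkn1a rose from 17.6, 4.90 and 4.90 CPM to 68.9, 137 and 201 CPM (3.89 ± 0.71, adjusted p = 0.00275). Leaving out 1 library moved by more than 1.5 times the number of higher mitosis and kinetochore genes (4 without WT 1 or ∆Foxp3 2, 5 without WT 2 or ∆Foxp3 3).

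All 36 replication genes and all 36 mitosis genes had a smaller log2 fold change in lung than in spleen. In lung, the summed level of the 36 mitosis genes went from 2819 CPM in WT to 5392 CPM in ∆Foxp3, and in spleen from 634 to 6065 CPM, so that the WT groups stood farther apart than the ∆Foxp3 groups. The difference between the tissues' genotype effects was called for 20 of the 36 mitosis genes and 6 of the 36 replication genes, against 0.925% of all genes (123 of 13295). Those counts were 5 to 14 and 2 to 7 in the fits without 1 lung library, lowest without lung ∆Foxp3 1 for both. Kif11, a spindle motor, had a log2 fold change of 1.44 ± 0.27 in lung and 4.51 in spleen (difference −3.08 ± 0.40, adjusted p = 0.00267). The 2 tissues' comparisons share no library, but the spleen and lung ∆Foxp3 libraries carry different allele labels, so tissue and allele cannot be told apart.

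**Figure D5:**
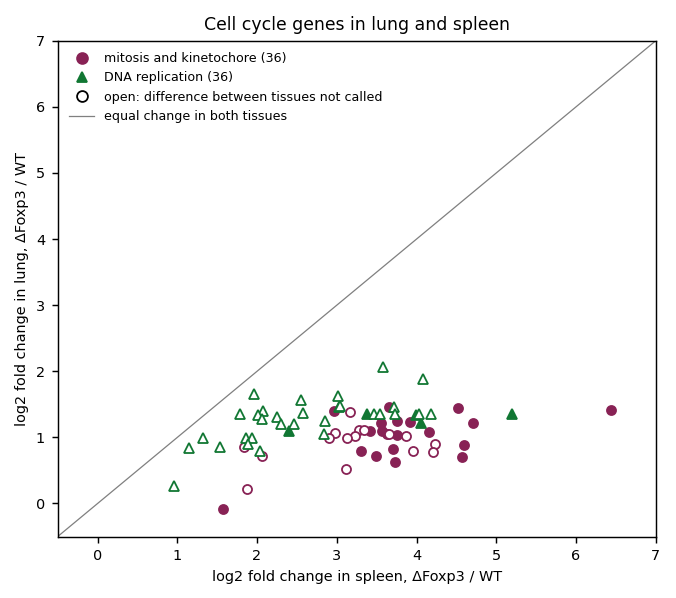
Log2 fold change of ∆Foxp3 over WT in lung (vertical axis) against that in spleen (horizontal axis) for 36 mitosis genes (circles) and 36 DNA replication genes (triangles). Filled symbols mark genes whose difference between the tissues was called, and the line marks equal change. All points lie below the line.

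Genes outside these lists differed between the tissues in either direction. Egr2 had a log2 fold change of 6.23 ± 0.54 in lung and 0.26 in spleen (difference 5.97 ± 0.66, adjusted p = 0.000758). Btg2, an antiproliferative gene, rose in lung (357, 204 and 189.8 CPM against 393, 387 and 544 CPM, 0.82 ± 0.22, adjusted p = 0.0171) and had a log2 fold change of −2.17 in spleen (difference 2.98 ± 0.31, adjusted p = 0.000496). Cish, Egr1, Dusp6 and Hilpda likewise had positive differences, of 1.47 ± 0.22, 2.12 ± 0.32, 1.94 ± 0.33 and 1.95 ± 0.33 (adjusted p = 0.00537, 0.006, 0.0121 and 0.0121). Tnf had 1.36 in lung and −1.61 in spleen (difference 2.97 ± 0.56, adjusted p = 0.0212). Lgmn, a lysosomal protease, fell in lung, from 143, 115 and 145 CPM to 28.7, 25.6 and 16.9 CPM (−2.50 ± 0.37, adjusted p = 0.00047), and had 0.26 in spleen (difference −2.75 ± 0.51, adjusted p = 0.0209). Of the differences between tissues in the last 2 paragraphs, those that were not called without 1 lung library were those of Dusp6 (adjusted p = 0.0511 without ∆Foxp3 1), Tnf (adjusted p from 0.0526 to 0.0692 without WT 1, WT 2, WT 3, ∆Foxp3 1 or ∆Foxp3 3) and Lgmn (adjusted p from 0.0542 to 0.0718 without WT 3, ∆Foxp3 1, ∆Foxp3 2 or ∆Foxp3 3). In a fit without 1 lung library, the threshold was missed by Btg2 (adjusted p from 0.0679 to 0.0836 without WT 2, WT 3 or ∆Foxp3 3) and Tnf (adjusted p from 0.0593 to 0.101 without WT 1, WT 2, WT 3, ∆Foxp3 2 or ∆Foxp3 3). Other processing ended the call of Btg2 (adjusted p = 0.0523, with only the lung libraries).

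Metabolic genes moved in part. Of 25 glycolysis and hypoxia genes 11 were higher and 1 lower. Aldoa, aldolase A, was at 414, 469 and 539.6 CPM in WT and 1221, 1613 and 1461 CPM in ∆Foxp3 (1.59 ± 0.18, adjusted p = 3.9e-05), Tpi1 rose by 1.38 ± 0.25 (adjusted p = 0.0015), Pgk1 by 1.28 ± 0.20 (adjusted p = 0.000516) and Gapdh by 1.03 ± 0.16 (adjusted p = 0.000605). P4ha1, a collagen hydroxylase and hypoxia target, was the member that fell, from 230.4, 222 and 205 CPM to 44.3, 43.4 and 21.6 CPM (−2.59 ± 0.25, adjusted p = 1.3e-05). Hilpda, a lipid droplet protein induced by hypoxia, was at 56.4, 35.3 and 34.6 CPM in WT and 319, 321 and 459.5 CPM in ∆Foxp3 (3.12 ± 0.25, adjusted p = 2.5e-06). Of 35 nuclear-encoded respiratory chain genes 5 were higher and none lower (0 unadjusted, 0 by DESeq2 and 0 by limma voom). The share called in that list was 14.3%, against 20.2% of all genes. Of 15 tested amino acid and iron transport genes 4 were higher, 3 lower and 8 not called, with a median of −0.01. The amino acid transporters Slc7a1 and Slc38a1 rose by 1.28 ± 0.22 (adjusted p = 0.00107) and 0.98 ± 0.17 (adjusted p = 0.00126), Slc3a2 by 0.65 ± 0.20 (adjusted p = 0.0306) and the transferrin receptor gene Tfrc by 0.98 ± 0.30 (adjusted p = 0.0326). The members that fell were Slc25a37, the iron importer of mitochondria (−1.13 ± 0.26, adjusted p = 0.00722), and the ferritin chains Ftl1 (−0.71 ± 0.17, adjusted p = 0.00845) and Fth1 (−0.46 ± 0.15, adjusted p = 0.0437). Hemoglobin genes held 0.18% to 0.45% of the counts in the lung WT libraries and at most 0.035% in those of lung ∆Foxp3. The part of erythroid transcripts in these iron genes was not tested. None of 40 cytosolic ribosomal protein genes was called by edgeR, higher (2 unadjusted, 0 by DESeq2 and 4 by limma voom) or lower (1 unadjusted, 0 by DESeq2 and 2 by limma voom), and their median was −0.01. Some calls depended on 1 library, namely those of Slc3a2 (adjusted p from 0.0814 to 0.109 without WT 2, WT 3, ∆Foxp3 2 or ∆Foxp3 3), Tfrc (adjusted p from 0.0525 to 0.0937 without WT 1, WT 2, WT 3, ∆Foxp3 1 or ∆Foxp3 3), Slc25a37 (adjusted p = 0.0573 without WT 2), Ftl1 (adjusted p from 0.0524 to 0.0788 without WT 1 or ∆Foxp3 1) and Fth1 (adjusted p from 0.112 to 0.178 without any one). The setting also decided the call of Fth1 (adjusted p = 0.0646, with no mitochondrial, ribosomal or receptor genes). The number without 1 library differed by over 1.5 times for higher nuclear-encoded respiratory chain genes (1 without WT 1, WT 2, ∆Foxp3 2 or ∆Foxp3 3, 9 without ∆Foxp3 1), higher amino acid and iron transporter genes (2 without WT 2, WT 3 or ∆Foxp3 3) and lower amino acid and iron transporter genes (1 without WT 1, WT 2 or ∆Foxp3 1).

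Genes named for the smallest adjusted p or the largest fold lay in part outside these programs. Sesn1, a stress-responsive inhibitor of mTORC1, was at 409.6, 403 and 354 CPM in WT and 26.2, 23.7 and 17.1 CPM in ∆Foxp3 (−4.12 ± 0.25, adjusted p = 6.6e-07), and Slc17a9, a vesicular nucleotide transporter, at 179, 189.8 and 195 CPM in WT and 34.7, 23.5 and 23.8 CPM in ∆Foxp3 (−2.79 ± 0.18, adjusted p = 6.6e-07). Cd55, which protects cells from complement, was at 78.9, 103 and 99.7 CPM in WT and 3.21, 8.88 and 4.45 CPM in ∆Foxp3 (−4.06 ± 0.29, adjusted p = 1.6e-06). Rbpj, the nuclear partner of Notch, was at 22.9, 13.7 and 19.6 CPM in WT and 229, 162 and 197 CPM in ∆Foxp3 (3.38 ± 0.25, adjusted p = 1.7e-06). Sema4a, a semaphorin that binds T cells, went from 21.9, 24.8 and 17.3 CPM to 198, 241 and 221 CPM (3.37 ± 0.28, adjusted p = 4e-06) and Pik3ap1, an adaptor for PI3 kinase, from 4.93, 0.774 and 2.10 CPM to 102, 109 and 123 CPM (5.38 ± 0.45, adjusted p = 5.7e-06). Cyp11a1, the enzyme that starts steroid synthesis, was at 0.643, 0 and 0.175 CPM in WT and 30.5, 40.4 and 31.1 CPM in ∆Foxp3 (6.81 ± 1.07, adjusted p = 0.00086). Bex1 had 0 counts in WT and 56.9, 7.30 and 19.8 CPM in ∆Foxp3 (adjusted p = 0.000773). Its pooled level was at least 128-fold higher, with a wide spread between the ∆Foxp3 libraries. Prg4, lubricin, fell from 37.7, 33.3 and 21.3 CPM to 1.61, 0 and 1.33 CPM (−4.98 ± 0.63, adjusted p = 0.000124), and Slc28a2b, a nucleoside transporter gene, from 91.7, 52.6 and 32.7 CPM to 1.61, 1.38 and 2.22 CPM (−5.07 ± 0.60, adjusted p = 8.5e-05).

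Transcripts of other cells also differed between the groups. Erythroid and platelet genes summed to 1974 to 4893 CPM across the WT libraries against 1.58 to 406 CPM across those of ∆Foxp3, and 3 of 7 tested were lower. Hbb-bs, a beta globin and the most abundant, was at 2375, 3412 and 1322 CPM in WT and 63.1, 0.395 and 267 CPM in ∆Foxp3 (−4.43 ± 1.77, adjusted p = 0.115). B and plasma cell genes summed to 2027 to 2133 CPM across the WT libraries against 279 to 500.1 CPM across those of ∆Foxp3, nearly all of it Ighm, the IgM heavy chain, at 1929.5, 1914 and 1876 CPM in WT and 229.6, 109 and 147 CPM in ∆Foxp3 (−3.56 ± 0.34, adjusted p = 2.8e-05), whereas the B cell receptor chain Cd79a was at 3.86, 7.74 and 4.55 CPM and 2.76, 1.78 and 2.45 CPM. Myeloid genes summed to 391 to 724 CPM across the WT libraries against 341 to 402 CPM across those of ∆Foxp3. Lyz2, lysozyme of macrophages, was at 126, 1.55 and 1.75 CPM in WT and 0.459, 0.395 and 3.33 CPM in ∆Foxp3, so that lung WT 1 alone was high. Lung epithelium genes summed to 56.2 to 230.4 CPM across the WT libraries against 21.1 to 32.6 CPM across those of ∆Foxp3. Scgb1a1, the club cell secretory protein, was at 6.22, 3.61 and 173 CPM in WT and 0.689, 0.592 and 2.67 CPM in ∆Foxp3, high in lung WT 3 (−5.53 ± 1.63, adjusted p = 0.046). Endothelial genes summed to 417 to 522 CPM across the WT libraries against 170.1 to 179 CPM across those of ∆Foxp3, without overlap, and 2 of 5 tested were lower, Pecam1 (−1.42 ± 0.17, adjusted p = 6.8e-05) and Ly6c1, which T cells also express. In that list Cdh5, Kdr, Tek and Emcn stayed below the filter, at no more than 1.57 CPM in any lung library, and Vwf at no more than 5.60 CPM. In spleen the 5 tested members summed to 493 CPM in WT and 179 CPM in ∆Foxp3. Markers of neutrophils stayed below the filter, and those of fibroblasts summed to 11.6 to 17.7 CPM across the WT libraries against 22.9 to 55.1 CPM across those of ∆Foxp3. The part of these cells in the other differences was not tested. Cd79a and Lyz2 were named after their values were seen. Calls that ended when 1 library was left out were those of Scgb1a1 (adjusted p from 0.117 to 0.336 without WT 3, ∆Foxp3 1, ∆Foxp3 2 or ∆Foxp3 3). Under other settings, calls ended for Scgb1a1 (adjusted p from 0.125 to 0.264, with no filter, limma voom or only the lung libraries). Counts that moved by more than 1.5 times without 1 library were those of lower erythroid and platelet genes (0 without WT 1, WT 2, ∆Foxp3 1 or ∆Foxp3 2).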

How the data were processed

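RNA of 1000 sorted cells per library was copied from oligo(dT) primers by Smart-seq2, amplified over 18 PCR cycles without molecular identifiers and read as 38-base pairs, per the labels' protocols. The authors deposited a table of raw gene counts; STAR 2.7.3a, featureCounts of Subread 2.0.0 and the mm10 build are named in the submitters' processing notes, but neither the annotation nor strandedness is given in the sources used here. Reads of overlapping, antisense or near-identical genes can thus be shared, and counting intervals cover counting error only. The 6 lung libraries were compared by edgeR 4.0.16 (quasi-likelihood, robust, TMM factors, filterByExpr) in R 4.3.3, in 1 fit over all 12 libraries with the group as its only term, with Benjamini-Hochberg adjustment. DESeq2 1.42.0 and limma 3.58.1 (voom) were alternatives. The fit was tested on simulated counts with known changes.

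Libraries of a group differed by more than sampling noise (chi-square per degree of freedom of 7.59 or more in every lung pair), so each was counted once. The members and gene lists were chosen with earlier results of these data known. Named genes are the 12 higher and 12 lower by fold and by adjusted p (10 CPM or more on average), Foxp3 and receptor genes, up to 6 called members of a list by adjusted p with up to 4 called against its direction and its 2 most abundant, the 6 smallest interaction p, and interferon and cytokine genes. Outside this rule, and after their values were seen, Cd70, Cd79a, Cdc6, Gata1, Gpr83, Itgae, Izumo1r, Lyz2, Mcm5, Mki67 and Tcf7 were named. Gene coordinates are of mm10 (GENCODE M21 symbols matched 98.2% of the tested genes), and promoters come from RefSeq's GRCm38.p6 table, which holds 9463 of the tested genes. A few genes of these lists are not reported here by name. Pecam1, Itgal, Itgb1, Slc3a2, Tfrc, Slc25a37, Ftl1 and Fth1 were named after their values were seen.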

Additional observations from a re-analysis of the deposited data

Results flagged for a closer look

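The genotype difference was larger or smaller in lung than in spleen for the following named genes, by the interaction term of the edgeR fit over all 12 libraries. A positive value means a higher log2 fold change of ∆Foxp3 over WT in lung. Values above 0 were found for Egr2 (5.97, adjusted p = 0.000758), Btg2 (2.98, adjusted p = 0.000496), Tnf (2.97, adjusted p = 0.0212), Egr1 (2.12, adjusted p = 0.006), Hilpda (1.95, adjusted p = 0.0121), Dusp6 (1.94, adjusted p = 0.0121), Ccr8 (1.71, adjusted p = 0.0486), Dgat1 (1.67, adjusted p = 0.0166), Cish (1.47, adjusted p = 0.00537) and Cdkn1b (0.96, adjusted p = 0.0357). Values below 0 were found for Kif11 (−3.08, adjusted p = 0.00267), Lgmn (−2.75, adjusted p = 0.0209), Mki67 (−2.50, adjusted p = 0.021), Mad2l1 (−1.57, adjusted p = 0.0385), Lig1 (−1.57, adjusted p = 0.046), Pola1 (−1.31, adjusted p = 0.0411) and Pycard (−1.02, adjusted p = 0.0495). Without 1 lung library, the difference was no longer called for Ccr8 (adjusted p from 0.0546 to 0.157 without WT 2, WT 3, ∆Foxp3 1, ∆Foxp3 2 or ∆Foxp3 3), Dgat1 (adjusted p from 0.0515 to 0.0603 without WT 2, WT 3, ∆Foxp3 1 or ∆Foxp3 3), Dusp6 (adjusted p = 0.0511 without ∆Foxp3 1), Tnf (adjusted p from 0.0526 to 0.0692 without WT 1, WT 2, WT 3, ∆Foxp3 1 or ∆Foxp3 3), Cdkn1b (adjusted p from 0.0599 to 0.122 without any one), Lgmn (adjusted p from 0.0542 to 0.0718 without WT 3, ∆Foxp3 1, ∆Foxp3 2 or ∆Foxp3 3), Mki67 (adjusted p from 0.0701 to 0.0911 without WT 3, ∆Foxp3 1 or ∆Foxp3 3), Mad2l1 (adjusted p from 0.0544 to 0.134 without any one), Lig1 (adjusted p from 0.0784 to 0.153 without WT 2, WT 3, ∆Foxp3 1, ∆Foxp3 2 or ∆Foxp3 3), Pola1 (adjusted p from 0.0784 to 0.15 without WT 2, WT 3, ∆Foxp3 1, ∆Foxp3 2 or ∆Foxp3 3) and Pycard (adjusted p from 0.118 to 0.175 without WT 2, WT 3, ∆Foxp3 1 or ∆Foxp3 3). The spleen and lung ∆Foxp3 libraries carry different allele labels, so tissue and allele cannot be told apart.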

How the results depend on the processing

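In lung, 2686 genes were called, with 3 libraries per group. The count stayed within 1.5 times under RLE factors (2668), library totals without TMM (2705), no filter on low counts (2728), a filter of 10 CPM in 3 libraries (2602), DESeq2 (3210), only the 6 lung libraries (3911) and without mitochondrial, ribosomal and receptor genes (2690). It was 4598 with limma voom (2376 higher and 2222 lower), and with only the lung libraries the higher count was 1983. Leaving out 1 lung library gave 1457 to 2324 calls, 724 to 1215 higher and 733 to 1109 lower. Without lung WT 1 and lung ∆Foxp3 3 together, chosen after seeing the data, 831 genes were called (385 higher and 446 lower), of which 817 were called in the same direction with all libraries. Deviations of same-numbered lung WT and lung ∆Foxp3 libraries from their group means had correlations of −0.024, −0.045 and −0.032. Pairing of lung with spleen libraries by number was not checked. With a replicate block 2422 genes were called in lung and 74 for the difference between tissues. That difference was called for 123 genes in the fit of all libraries, 363 without the filter, 301 with DESeq2, 190 with limma voom, 36 to 99 without 1 lung library and 52 without both libraries. The cause of these shifts was not tested. Of 197 genes followed, 171 were called, 128 of these under every alternative and none in the opposite direction under any. Calls ended with the replicate block for Cd4, Hdc, Slc3a2 and Tbx21 (adjusted p from 0.0508 to 0.0787). Without both libraries they ended for Ccl1, Cd4, Cd70, Cdc6, Ctla4, Erap1, Fas, Fth1, Ftl1, Gata3, Gpr83, Il13, Il21, Il5, Itgal, Itgb1, Klf2, Ltb, Mcm5, Mcm6, Nmur1, Oas1a, Scgb1a1, Slc3a2, Tbx21, Tfrc, Tnf, Tnfrsf1a, Trbc1 and Trbc2 (adjusted p from 0.0500401 to 0.372). The difference between tissues was no longer called with the replicate block for Ccr8, Cdkn1b, Lig1, Mad2l1, Pola1 and Pycard (adjusted p from 0.0566 to 0.0843). Without both libraries it was not called for Cdkn1b, Dusp6, Lgmn, Lig1, Mad2l1, Mki67, Pola1, Pycard and Tnf (adjusted p from 0.0502 to 0.119). It was also not called for Ccr8 (RLE factors, adjusted p = 0.0593), Dgat1 (limma voom, adjusted p = 0.0604), Pycard (library totals, adjusted p = 0.0500046) and Pycard (no mitochondrial, ribosomal or receptor genes, adjusted p = 0.0511). A further 17 genes that were not called passed under at least 1 alternative, Gbp7 in 6 of 16, Mki67 in 4 of 16, Oas3 in 4 of 16 and Csf2 in 3 of 14, and the others in 1 or 2. Among genes that were not called, the log2 fold change changed sign for Cd8b1 (−0.63 to 0.19 without 1 library), Ifi47 (−0.10 to 0.31, and −0.0084 with the block), Ifit2 (−0.39 to 0.22, and 0.29 without both libraries) and Lta (−0.45 to 0.46, −0.12 with limma voom and −0.088 with the block). The median log2 fold change of all genes was −0.01 to −0.02 under the 3 scalings.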

Other observations

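The following groups were put together after their values were seen and carry no test as groups. In the PYHIN (Ifi200) family of interferon-inducible DNA sensors and nuclear proteins, 7 of 11 tested genes were lower in lung ∆Foxp3 and 1 higher, with a median log2 fold change of −1.67. Ifi213 was at 234, 167 and 142 CPM in WT and 16.8, 22.5 and 15.3 CPM in ∆Foxp3 (−3.31 ± 0.24, adjusted p = 1.6e-06) and Ifi209 at 455, 501 and 479 CPM in WT and 116, 98 and 67.4 CPM in ∆Foxp3 (−2.35 ± 0.21, adjusted p = 8.2e-06). Mndal went from 192, 160.2 and 179 CPM to 81.7, 85.8 and 77.1 CPM (−1.12 ± 0.15, adjusted p = 0.000168). Among genes of inflammatory cell death, Casp1, the caspase that matures interleukin 1 beta, was at 9.64, 10.1 and 15.4 CPM in WT and 86.6, 99.4 and 121 CPM in ∆Foxp3 (3.12 ± 0.29, adjusted p = 9.2e-06) and Casp4 at 8.36, 7.22 and 10.7 CPM in WT and 48.7, 54.4 and 85.4 CPM in ∆Foxp3 (2.83 ± 0.32, adjusted p = 4.7e-05), while Pycard, the adaptor that recruits caspase 1, was at 282, 342 and 414 CPM in WT and 176, 250.2 and 206 CPM in ∆Foxp3 (−0.71 ± 0.16, adjusted p = 0.00653). Without 1 of the lung libraries, the test was no longer passed by Pycard (adjusted p = 0.0517 without WT 3).

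Several genes of fat storage and oxidation were higher, and how many other such genes were unchanged or lower was not counted. Plin2, which coats lipid droplets, was at 51, 50.8 and 46.7 CPM in WT and 175, 139.9 and 305 CPM in ∆Foxp3 (2.06 ± 0.27, adjusted p = 0.000154), and Dgat1, which makes triglycerides, at 112, 93.4 and 71.7 CPM in WT and 273, 192 and 354 CPM in ∆Foxp3 (1.56 ± 0.21, adjusted p = 0.000216). Cpt1a, which carries fatty acids into mitochondria, rose by 1.01 ± 0.17 (adjusted p = 0.00116) and Acadl, a dehydrogenase of beta oxidation, by 1.32 ± 0.19 (adjusted p = 0.000282). Vdr, the vitamin D receptor, was at 2.36, 3.61 and 0.875 CPM in WT and 193, 69.6 and 128 CPM in ∆Foxp3 (5.90 ± 0.69, adjusted p = 0.000151). Of 17 subunits of the 20S proteasome 12 were higher, with a median of 0.56, and of 20 nucleoporin genes 8, with a median of 0.53.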
